A study of Mus musculus with 80 samples.

Results

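The regions described here are 10-kb bins of the mouse autosomes (mm10 build) that lay more inside H3K27me3 peaks in Kdm6b knockout than in control uterine fibroblasts in each of 5 comparisons with the Pgr-Cre driver. For each bin the coverage, the percent of its bases inside peaks, was taken from a knockout and a control peak list, and a bin was kept when the knockout value was at least 20 percentage points higher in all 5 pairs. The rule kept 4524 of 246046 autosomal bins. Of the whole, 164079 bins held a peak in at least 1 of the 12 lists of the Kdm6b set, and these serve as the background throughout. Another 1313 bins were at least 20 points lower in all 5 pairs. The bins were chosen by their coverage in the 5 Pgr-Cre pairs, so those values are given as a description only. The sixth knockout pair, made with another Cre driver, and 4 lists from B6CBAF1/J females took no part in the choice.

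The mark was mapped by CUT&RUN, where a nuclease tethered to an H3K27me3 antibody cuts out the chromatin it sits on. The cells were fibroblasts that had been released from myometrium and endometrium by digestion and purified with magnetic beads. Controls carried floxed Kdm6b alleles without Cre (Kdm6b f/f), and the conditional knockouts (cKO) deleted Kdm6b with Pgr-Cre, a driver that follows the progesterone receptor gene and acts in several uterine cell types. Of the 5 Pgr-Cre pairs, those of gestation days GD5.5 and GD8.5 came from inter-implantation sites (IIS) and that of GD18.5 from implantation sites (IS), while GD14.5 gave 1 pair of each. The held-out pair came from GD14.5 IS, with Kdm6b f/f deleted by Pdgfra-cre, a driver active in Pdgfra-expressing mesenchymal cells, and a Kdm6b f/f control of its own. All these females had been mated with B6 males. The B6CBAF1/J females, which carry no floxed allele in the labels, gave GD0.5 uterus, GD5.5 IIS after mating with B6 males, GD5.5 uterus after mating with vasectomized males, and uterus of non-pregnant females given progesterone for 3 days. Ages are not given in the sources used here.

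Each group had 3 samples that were pooled into 1 peak list, so no group has replicate values, no test between groups was possible, and the reads behind a list are unknown. Each list also pools cells, so that more cells with the mark and more of the mark in each cell cannot be told apart. In the 12 lists of the Kdm6b set, peaks covered 520 to 687 Mb of the autosomes, with the shortest length in the control of the Pdgfra-Cre pair. Genes of fibroblast identity had a mean coverage of 4.07% to 8.97% in these lists and broadly active genes 2.59% to 3.87%, against 77.3% to 83.3% for epithelial markers, 42.9% to 55.4% for endothelial markers and 53.2% to 62.4% for immune markers. The spans of Kdm6b and Pgr were at 0% in all 16 lists, and that of Pdgfra at 7.99% to 37.9%. The mark at Kdm6b does not show whether the gene was deleted.

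H3K27me3 is deposited by the Polycomb repressive complex PRC2 on genes and domains held silent in a cell type, and it can spread from nucleation sites along flanking chromatin. KDM6B is one of the enzymes that remove it, and demethylases of this family are best known at enhancers and promoters of genes being switched on. Uterine fibroblasts answer progesterone through pregnancy and lie beside the smooth muscle whose contraction ends it.

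Promoters were the exception among the gained bins. Sequence is therefore shown for the 5 gained bins at a protein-coding gene start whose smallest gain over the 5 pairs was largest and which were also at least 20 points higher in the held-out pair, so that the contrast between CpG-poor and CpG-rich starts can be read directly. Each line gives the 250 bases before the annotated start from RefSeq (GRCm38.p6, the assembly called mm10), 5′ to 3′ on the gene's strand, with CG dinucleotides in capitals. The stretches are chr13:41847617-41847866 on the minus strand for Adtrp, chr1:194619579-194619828 on the plus strand for Plxna2, chr6:119544348-119544597 on the minus strand for Wnt5b, chr8:87563657-87563906 on the plus strand for 4933402J07Rik and chr14:22019462-22019711 on the plus strand for Lrmda.
Adtrp: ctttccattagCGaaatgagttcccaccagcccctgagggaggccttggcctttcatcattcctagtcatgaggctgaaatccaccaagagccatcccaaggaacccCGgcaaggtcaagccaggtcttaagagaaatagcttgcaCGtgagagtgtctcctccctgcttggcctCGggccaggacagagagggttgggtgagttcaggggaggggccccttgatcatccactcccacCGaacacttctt
Plxna2: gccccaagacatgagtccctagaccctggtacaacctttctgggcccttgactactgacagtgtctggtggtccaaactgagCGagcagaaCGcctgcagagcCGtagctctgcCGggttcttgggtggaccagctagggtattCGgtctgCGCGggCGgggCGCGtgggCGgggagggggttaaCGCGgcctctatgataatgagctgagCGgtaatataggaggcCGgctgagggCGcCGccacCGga
Wnt5b: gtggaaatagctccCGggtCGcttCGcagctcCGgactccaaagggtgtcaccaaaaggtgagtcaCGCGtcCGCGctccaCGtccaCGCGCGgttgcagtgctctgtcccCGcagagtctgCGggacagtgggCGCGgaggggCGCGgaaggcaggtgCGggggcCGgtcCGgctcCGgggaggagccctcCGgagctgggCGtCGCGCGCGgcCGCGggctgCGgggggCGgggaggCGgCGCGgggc
4933402J07Rik: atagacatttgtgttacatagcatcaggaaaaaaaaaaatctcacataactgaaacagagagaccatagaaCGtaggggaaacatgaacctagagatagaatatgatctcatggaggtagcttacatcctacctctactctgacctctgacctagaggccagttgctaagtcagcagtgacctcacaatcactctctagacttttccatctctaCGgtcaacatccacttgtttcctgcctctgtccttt
Lrmda: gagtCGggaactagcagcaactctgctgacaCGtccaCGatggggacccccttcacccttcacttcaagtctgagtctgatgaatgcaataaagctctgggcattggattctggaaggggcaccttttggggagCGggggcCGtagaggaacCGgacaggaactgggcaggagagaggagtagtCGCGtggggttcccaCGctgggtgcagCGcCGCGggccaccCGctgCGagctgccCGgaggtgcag

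Adtrp encodes an enzyme that cleaves lipids of the fatty acid ester class, Plxna2 a semaphorin receptor, Wnt5b a secreted Wnt ligand, and Lrmda a leucine-rich protein linked to melanocyte differentiation. The Wnt5b stretch holds 35 CG dinucleotides and the Plxna2 stretch 18, whereas the Adtrp stretch holds 5 and that of 4933402J07Rik 2. These starts were required to be at least 20 points higher in the held-out pair, so their values there are a description only. The bins were 78.5 points higher in cKO for Adtrp, 54.7 for Plxna2, 75.1 for Wnt5b, 66.2 for 4933402J07Rik and 80.3 for Lrmda. The bin at the starts of Inpp4b and Gm51582 had a larger smallest gain, 43.1 points, but was only 8.17 points higher there and is not shown. Of all 79 gained bins with a protein-coding start, 91.1% were at least 20 points higher in the held-out pair. Over all gained bins, 84 RefSeq starts of 80 protein-coding genes were found. Their median observed-to-expected CpG ratio in the window from 250 bases before to 50 after the start was 0.31, against 0.50 for the starts in all bins with a peak. A ratio of at least 0.6 was reached by 22.6% of them, against 42.9%. For the 101 starts in bins lost in all 5 pairs the median ratio was 0.09.

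The largest set of values chose the bins. In the cKO lists the gained bins lay on average 64.6% (GD5.5 IIS), 63.8% (GD8.5 IIS), 61.7% (GD14.5 IIS), 69.0% (GD14.5 IS) and 66.3% (GD18.5 IS) inside peaks. In the matching controls the means were 20.6%, 15.8%, 14.6%, 19% and 17.7%, below the background means of 35.5% to 39.3% in the same control lists. The median gain ran from 41.6 points at GD5.5 IIS to 48.2 at GD14.5 IS. The smallest of a bin's 5 gains fell in the GD5.5 IIS pair for 28.6% of the bins, and the largest in the GD14.5 IS pair for 25.9%. The mean control coverage was under 10% in 1830 bins (40.5%), 10% to under 30% in 1761 (38.9%) and at least 30% in 933 (20.6%), and 262 bins were at 0% in all 5 controls. In 4008 of the 4524 bins every one of the 5 cKO values exceeded every one of the 5 control values. In single pairs, 11.4% (GD5.5 IIS), 13.6% (GD8.5 IIS), 11.4% (GD14.5 IIS), 16.8% (GD14.5 IS) and 13.2% (GD18.5 IS) of background bins passed the same 20 points, and nothing is read from the members' own share there.

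**Figure D1:**
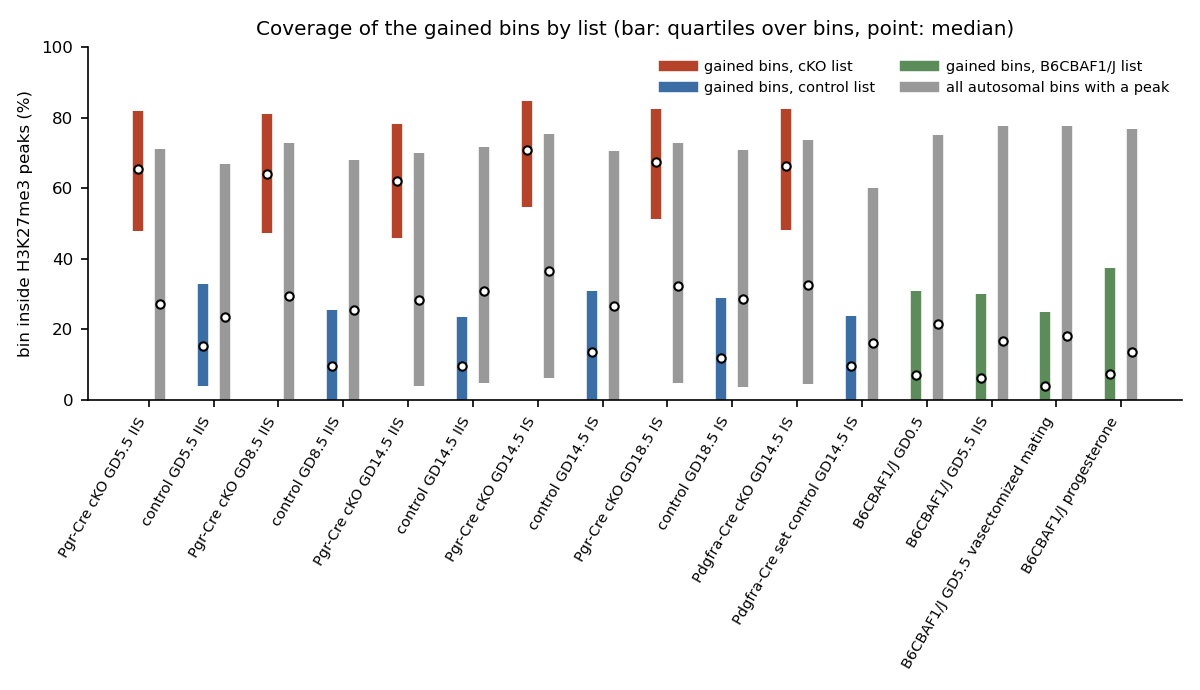
Percent of a bin inside H3K27me3 peaks (vertical axis) in each of the 16 lists, with bars from the first to the third quartile over bins and points at the median, for the 4524 gained bins (red cKO, blue control, green B6CBAF1/J) and all 164079 autosomal bins with a peak (grey). The median of the gained bins is above that of all bins in the 6 cKO lists, the held-out Pdgfra-Cre list included, and below it in the 6 control and 4 B6CBAF1/J lists. The 2 sets of lists were called with different settings and are not compared with each other.

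The bins that the threshold just admitted were close to those it just left out. The 3 bins just inside lay near Fam110b, with gains of 20, 35.3, 20.9, 67.8 and 27.1 points in the order of pairs above, near Gm40514, with 20, 25.7, 33.3, 30.5 and 43.9, and near Spred2, with 40.8, 59.9, 20, 39.6 and 44.1. The 3 just below the threshold lay inside Sema3d, with 58.6, 49.7, 24.0, 20 and 42.5, near Akr1e1, with 34.6, 25.7, 27.8, 20 and 53.0, and near Gli2, with 61.6, 59.4, 37.3, 31.4 and 20. In the held-out pair the bins just inside were 69.1, 46.1 and 77.1 points higher in cKO, and those just outside 59.0, 32 and 72.3.

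The gained bins carried over to the Pdgfra-Cre knockout. In that pair 4116 of the 4524 bins, 91.0%, were at least 20 points higher in cKO, against 20% of the background bins. The exact 95% binomial interval of the share ran from 90.1% to 91.8%. It covers only the counting of bins, which are not independent because neighbours share peaks. The difference was above 0 in 4483 bins, 99.1% against 55.1% of the background. The median was 48.9 points (quartiles 34.1 and 63.7), against 2.80 in the background. Mean coverage was 64.1% in the Pdgfra-Cre cKO list and 15.3% in its control, against 40.1% and 31.7% in the background. The rule favoured bins of low control coverage, and a bin near full coverage cannot gain 20 points. In the held-out control 5.61% of gained and 29.8% of background bins were at least 50% inside peaks. No background of like control coverage was set beside the gained bins, so the part of that choice was not tested. All 6 cKO values exceeded all 6 control values in 3836 bins, 84.8%. The 5 Pgr-Cre pairs among these chose the bins, and on those pairs alone 4008 bins (88.6%) were so separated, so this count is a description only. When the weakest peaks were dropped until all lists had the same covered length, 1763 bins met the rule and 76.9% of them were at least 20 points higher in the held-out pair, against 11.8% of the background.

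The share in the held-out pair was larger the more Pgr-Cre pairs a bin had gained in. It was 7.34% of the 113531 bins gained in none, 28.3% for 1 pair, 47.7% for 2, 65.3% for 3, 80.5% for 4 and 91.0% for all 5. Bins at least 20 points lower in the held-out cKO went the other way, from 2.94% to 0.0221%, the latter being 1 bin against 2.41% of the background. A bin can fall by 20 points only from a control coverage of at least 20%. In the held-out control the mean went from 33.4% in bins gained in none to 15.3% in the gained bins, whose median was 9.72%. The part of control coverage in either series was not tested. Of the 1313 bins lost in all 5 Pgr-Cre pairs, 24.0% were at least 20 points lower in the Pdgfra-Cre cKO and 7.08% at least 20 points higher. Within the gained bins the size of the gain also carried over: the median held-out difference was 35.9 points in the 1132 bins with the smallest mean gain and 65.3 in the 1131 bins with the largest. Across the 4524 bins the mean Pgr-Cre gain and the held-out difference had a Pearson r of 0.52 and a Spearman rho of 0.51. Over all 164079 background bins these were 0.60 and 0.48, so the relation was not particular to the gained bins. Both are a description over bins that share lists and neighbours.

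**Figure D2:**
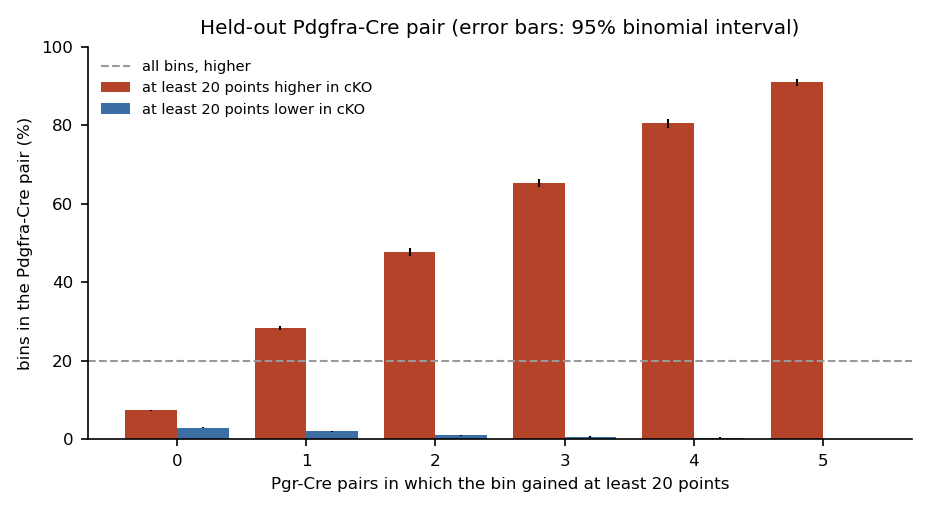
Percent of bins (vertical axis) at least 20 points higher (red) or lower (blue) in the held-out Pdgfra-Cre cKO, by the number of Pgr-Cre pairs in which the bin had gained at least 20 points (horizontal axis), with exact 95% binomial intervals over bins. The red bars climb from 7.34% to 91.0%, crossing the background share of 20% (dashed) between 0 and 1 pair, while the blue bars shrink from 2.94% to 0.0221%. Over the same groups the mean coverage in the held-out control fell from 33.4% to 15.3%.

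The held-out pair was not alone in this. With each of the 6 pairs left out in turn and read in the bins gained in the other 5, the share at least 20 points higher was 77.7% at GD5.5 IIS, 84.4% at GD8.5 IIS, 83.7% at GD14.5 IIS, 88.2% at GD14.5 IS and 86.7% at GD18.5 IS, beside the background shares given above. This reading was added after the data were seen. GD14.5 IS gave 2 control lists and 2 cKO lists, one from each Cre set. Those of the Pgr-Cre set helped to choose the bins, so their differences at gained bins are a description. Over the background, 12.9% of bins were at least 20 points higher in the Pgr-Cre set control than in the Pdgfra-Cre set control and 1.35% lower, and at the gained bins 10.2% and 2.61%. For the 2 cKO lists the shares were 8.28% higher and 4.75% lower over the background, and 18.3% and 6.23% at the gained bins. The lists of the Pgr-Cre GD14.5 IS pair differ from the others in a version tag in their peak names, whose part in the result was not tested. Without that pair in the rule, 89.1% of the chosen bins were at least 20 points higher in the held-out pair.

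The bin with the largest smallest gain lies inside Slc14a2, a urea transporter gene (chr18:78280001-78290000). It was 88.1%, 94.9%, 85.9%, 87.0% and 93.6% inside peaks in the 5 Pgr-Cre cKO lists and 0%, 0%, 0%, 0% and 4.26% in the controls. In the held-out pair it was at 88.5% in cKO and 13.6% in control, and it was at 0% in all 4 B6CBAF1/J lists. A bin 324508 bases from Cdh11, which encodes a cadherin of mesenchymal cells (chr8:103110001-103120000), was at 93.1% to 100% against 0% to 14.9%, and at 100% against 0% in the held-out pair. A bin 18332 bases from Cd44, the hyaluronan receptor gene (chr2:102920001-102930000), was at 91.0% to 100% against 0% to 21.2%, with 100% against 17.4% in the held-out pair. Other bins with a large smallest gain lay near Phlda1, Gramd3, Efnb2, Creb5, St3gal1 and Mc2r, with held-out differences of 55.0 to 95.7 points. Of these bins, the one in Slc14a2 alone overlaps a protein-coding gene.

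In 10 gained bins the held-out difference was largest, at 100 points. They lay near Mreg, Auts2, Cdh11, Cdh5, Maf, 1810046K07Rik, Hivep2, Gramd3 and, in 2 bins, Tcf4, all outside protein-coding genes. The one near Maf, a bZIP transcription factor gene (chr8:115720001-115730000), was at 95.6%, 86.9%, 87.5%, 92.8% and 81.7% in the Pgr-Cre cKO lists and at 45.7%, 4.77%, 5.63%, 13.4% and 0% in the controls. Its control value at GD5.5 IIS thus stood well above the other 4. At the other end, 1 bin was at least 20 points lower in the held-out cKO, inside Gucy1a1, a subunit gene of the nitric oxide receptor guanylate cyclase (chr3:82100001-82110000). It was at 93.1%, 76.8%, 87.2%, 80.3% and 72.9% in the Pgr-Cre cKO lists against 60.1%, 52.6%, 37.8%, 33.9% and 9.06% in the controls, but at 13.6% against 58.0% in the Pdgfra-Cre pair. The next lowest held-out differences were -16.9 points inside Stag1, a cohesin subunit gene, -16.5 near Csnk1g3, -15.3 near Tnfrsf21 and -15.1 near Col8a1.

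Of the 919 autosomal hairpins in the RefSeq microRNA table used here, 460 lie in background bins and 5 of these in gained bins. This is a smaller share than the 4524 gained bins make of the 164079 background bins, and nothing is read from the count. By the gene annotation, Mir145b and Mir6356 lie in gained bins as well. The mature sequences of the 5 are shown because each belongs to a bin described by its values, with the seed (bases 2 to 8) in capitals. No seed is shared.
mmu-miR-6348: uCAGCCUUuauaaggugugugu
mmu-miR-6354: uGCCCUGGggaucaggucucu
mmu-miR-7010-5p: cGGAAAGGauugggaaacuuga
mmu-miR-6338: cUGGUUUCucucauuugugcu
mmu-miR-6390: gAAUUGAUcaggauguaacca
The bin of mmu-miR-6348 was 71.9 points higher in the held-out cKO, at 100% against 28.1%, and that of mmu-miR-6354 65.1 points, at 86.0% against 20.9%. Both lie on chromosome 1, the first at chr1:168490740-168490761 and the second at chr1:169019041-169019061. The bins of mmu-miR-6338 and mmu-miR-6390 were 24.1 and 31.9 points higher. The mmu-miR-7010-5p sequence lies in the Gucy1a1 bin that was lower in the held-out cKO.

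Gained bins formed clusters. Of the 4524 bins, 51.7% touched another gained bin, giving 3049 runs, of which 2184 were single bins, 331 had at least 3 bins and 71 at least 5. The longest had 13 bins. For each pair, all bins at least 20 points higher were also taken, whatever the other pairs showed and with gained bins among them. Those bins touched another of their set in 56.6% (GD5.5 IIS) to 64.3% (Pdgfra-Cre GD14.5 IS) of cases. Bins lost in all 5 pairs did so in 27.3%, with at most 5 in a row. There are fewer lost bins, and touching depends on how many bins are chosen.

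The longest run spans chr18:68990001-69120000, holds the non-coding genes Gm31088, Gm52333 and Mir145b and lies 223429 bases from Tcf4, an E-protein transcription factor gene. Its 13 bins averaged 69.9%, 72.1%, 71.0%, 74.6% and 72.1% in the Pgr-Cre cKO lists and 20.2%, 19.9%, 17.4%, 23.5% and 18.9% in the controls. In the held-out pair they averaged 71.4% against 15.3%, and all 13 were at least 20 points higher. The second run, 11 bins over the start of Adtrp and the region upstream of it (chr13:41820001-41930000), averaged 54.4% to 72.9% in Pgr-Cre cKO, 1.06% to 11.4% in controls, and 69.0% against 7.02% in the held-out pair, again with all 11 higher. A run of 10 bins inside Celf2, a splicing regulator gene (chr2:7110001-7210000), averaged 58.8% to 65.5% against 3.61% to 11.6%, and 59.0% against 3.67% in the held-out pair, with 9 of them at least 20 points higher.

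Other long runs lay outside protein-coding genes, nearest to Triqk, Sox5, Rasgrp1, Lekr1, Bcl6, Zfp608 and Foxo1. The runs near Zfp608 and Foxo1 are 2 of 6 runs of 7 bins; the others lie near Mctp2, Rbms1 and, in 2 runs, Zfp608. Bcl6 encodes a transcriptional repressor and Foxo1 a forkhead factor known for its role in decidualization, the change of uterine stroma that supports the embryo. The 8 bins near Bcl6 (chr16:24100001-24180000), 111135 bases away, averaged 60.3% to 72.6% in Pgr-Cre cKO and 7.18% to 28.7% in controls. The 7 bins near Foxo1 (chr3:52610001-52680000), 259892 bases away, averaged 60.8% to 78.6% against 3.79% to 21.8%, and all 7 were higher in the held-out pair, at 66.7% against 2.15%. The run near Sox5 varied most among controls, from 35.2% at GD5.5 IIS and 23.9% at GD8.5 IIS to 0% at GD18.5 IS. The run near Rasgrp1 varied most in cKO, from 42.5% at GD8.5 IIS to 79.1% at GD14.5 IS.

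**Figure D3:**
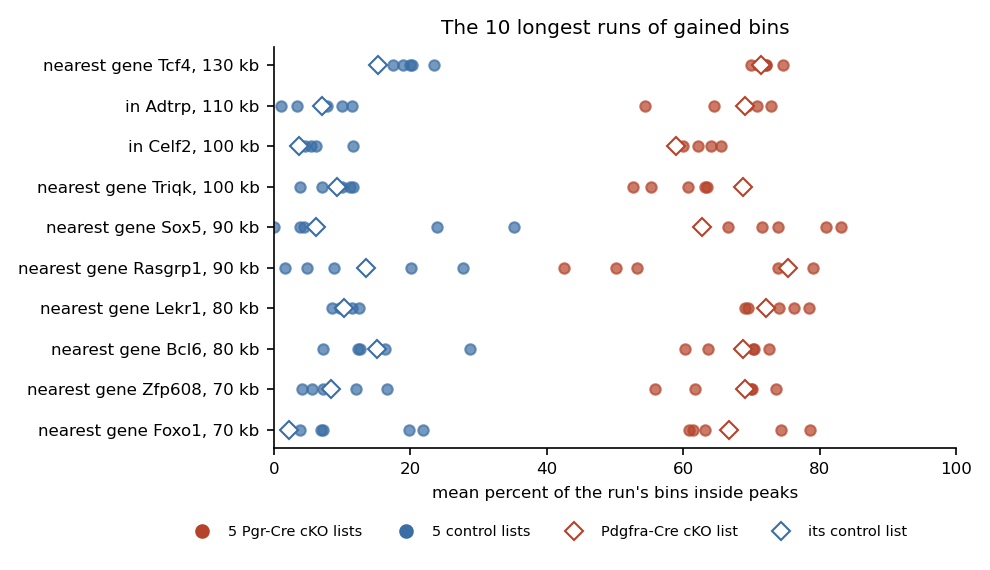
Mean percent of the bins of a run inside peaks (horizontal axis) for 10 of the longest runs (all of 8 or more bins and 2 of the 6 of 7 bins), each point 1 list: filled circles for the 5 Pgr-Cre cKO (red) and 5 control (blue) lists that chose the bins, open diamonds for the held-out Pdgfra-Cre pair. In all 10 runs every cKO point lies to the right of every control point, with the held-out cKO list at 59.0% to 75.3% and its control at 2.15% to 15.3%.

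On a larger scale the bins were uneven along the genome. Among windows of 1 Mb, the fullest was chr18:55000001-56000000 with 53 gained bins, of which 50 were at least 20 points higher in the held-out pair and none lies in a protein-coding gene. It was followed by chr7:71000001-72000000 with 39, all 39 of them higher in the held-out pair. Chromosome 18 had the highest share of its background bins among the gained, 5.14%, and chromosomes 19 and 11 the lowest, 1.64% and 1.67%. The share at least 20 points higher in the held-out pair was similar on every chromosome, from 87.0% on chromosome 17 to 94.2% on chromosome 19.

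The mark around gained bins was higher in cKO as well, most so in the nearest bins. With other gained bins left out, bins 10 kb away averaged 38.3% to 46.3% in the 5 Pgr-Cre cKO lists and 19.2% to 22.9% in their controls. At 200 kb the cKO means were still higher, between 29.6% and 35.1%, with control means between 23.0% and 24.3%. Over all background bins the mean difference of the 5 pairs was -1.40 to 4.56 points. Neighbouring bins share peaks with the chosen ones. In the held-out pair the same profile appeared, with 64.1% at the gained bin, 43.3% and 43.2% on either side of it at 10 kb, and controls of 15.3%, 17.2% and 17.5%. Of the gained bins, 52.7% had a bin with a mean control coverage of at least 50% within 50 kb, against 72.6% of background bins. Among bins whose mean control coverage was under 30%, the shares within 10 kb were 16.1% of gained and 21.8% of background bins.

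**Figure D4:**
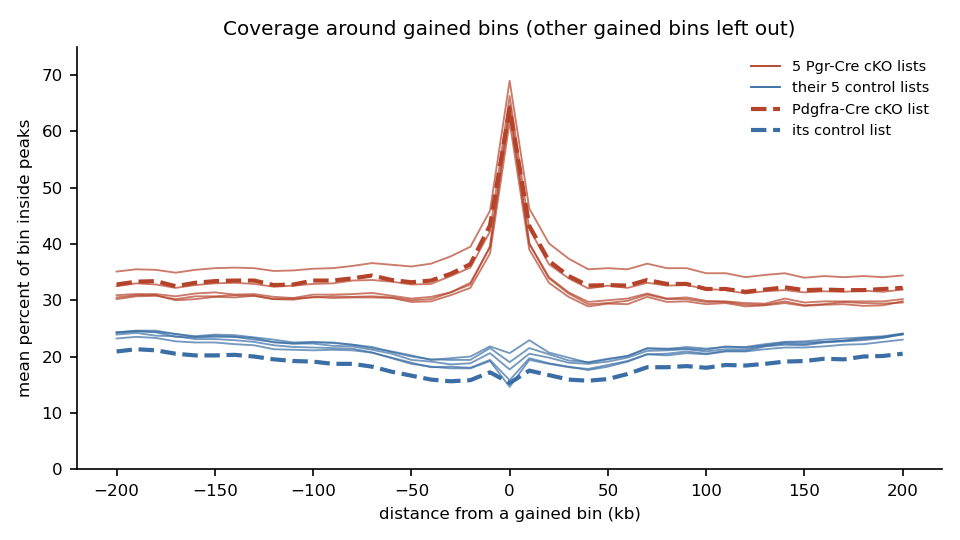
Mean percent of 10-kb bins inside peaks (vertical axis) by distance in kb from a gained bin (horizontal axis, other gained bins left out), for the 5 Pgr-Cre pairs (thin lines) and the held-out Pdgfra-Cre pair (dashed). All 6 cKO lines peak at the gained bin and stay above the control lines out to 200 kb on either side, and the held-out lines go from 64.1% at the centre to 32.8% and 32.2% at the 2 ends for cKO, and from 15.3% to 20.9% and 20.5% for control.

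Gained bins lay mostly between genes. A protein-coding gene overlapped 19.9% of them (exact interval over bins 18.8% to 21.1%) against 38.1% of the background, and any annotated gene 44.1% against 53.4%. A protein-coding start lay in 79 bins, 1.75% against 6.72%. Bins centred over 100 kb from a protein-coding gene made up 42.3% against 29.9%, but those over 500 kb away only 3.25% against 7.31%. Gained bins were thus common at middle distances from genes and scarce both inside genes and deep in gene deserts. The held-out share was 84.9% for the 901 bins in protein-coding genes and 92.5% for the 3623 outside. Shares of background bins inside and outside genes were not set beside these, so nothing is read from the difference.

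**Figure D5:**
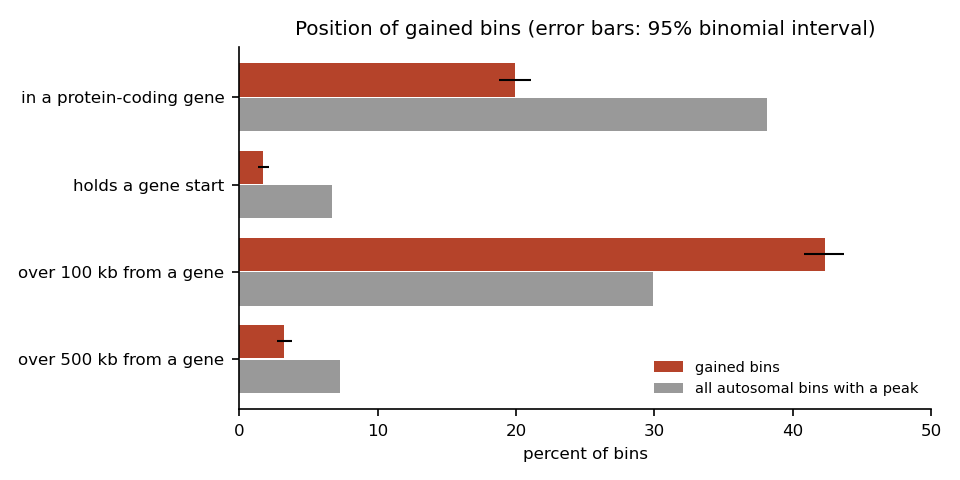
Percent of bins (horizontal axis) in each class of position relative to protein-coding genes, for gained bins (red, with exact 95% binomial intervals over bins) and all autosomal bins with a peak (grey). The red bars are shorter for bins in genes (19.9% against 38.1%), at gene starts (1.75% against 6.72%) and over 500 kb from a gene (3.25% against 7.31%), and longer over 100 kb from a gene (42.3% against 29.9%).

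Among the 20661 autosomal protein-coding genes, 473 (2.3%) had at least 1 gained bin and 84 had at least 3. They were long, with a median span of 147 kb against 17.5 kb, and a longer gene holds more bins. Wwox, an oxidoreductase gene at a fragile site, had 29 gained bins of its 92 with a peak, Slc14a2 had 22 of 45, Lrmda 20 of 104, Rbms3, an RNA-binding protein gene, 13 of 38, and Macrod2, a mono-ADP-ribose hydrolase gene, 12 of 184. Celf2 and Arhgap15, a Rac-inactivating GAP gene, had 10 each, Nedd9, a focal adhesion scaffold gene, and Kcnma1 9 each, and Hmcn1, a matrix protein gene, 8. Across the 22 gained bins of Slc14a2 the mean coverage was 59.6%, 63.7%, 64.3%, 65.2% and 70.1% in Pgr-Cre cKO and 6.38%, 2.32%, 5.17%, 8.93% and 7.15% in control, with 68.1% against 6.51% in the held-out pair. All 22 bins were at least 20 points higher there. In Wwox 28 of 29, in Lrmda 18 of 20, and in Rbms3, Macrod2, Arhgap15 and Nedd9 all of the bins were at least 20 points higher in the held-out pair, whereas in Kcnma1 4 of 9 and in Hmcn1 4 of 8 were. At equal covered length Wwox had 16 gained bins, Lrmda 10, Macrod2 6, Slc14a2 4, Rbms3 and Nedd9 2 each, Celf2, Kcnma1 and Hmcn1 1 each, and Arhgap15 none.

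Contraction and parturition genes held 16 gained bins in 7 of 38 genes, 6.50% of the list's bins with a peak, against 1.44% of all bins with a peak in protein-coding genes. The 7 genes were Kcnma1, the large-conductance calcium-activated potassium channel, Slco2a1, the prostaglandin transporter, Kcnn3, a small-conductance potassium channel, Cacna1c, the L-type calcium channel, Mylk, the myosin light-chain kinase, Adra1a, an alpha-adrenergic receptor, and Ryr2, a calcium release channel. In the held-out pair the values of this list were lower than those of the other genes: 7 of the 16 bins were at least 20 points higher, with a median difference of 18.9 points against 43.3 over all gained bins in protein-coding genes, a contrast that was not tested. The 9 bins of Kcnma1 were at 85.0%, 83.8%, 60.3%, 49.2% and 44.9% in Pgr-Cre cKO and at 23.6%, 18.9%, 3.10%, 0% and 0% in control. Both sides were highest at GD5.5 IIS, the cKO value was lowest at GD18.5 IS and both IS controls were at 0%. The held-out pair stood at 37.6% against 0.848%. The single bin of Mylk was at 40.4%, 27.9%, 86.4%, 92.6% and 85.8% against 19%, 0%, 35.9%, 36.1% and 65.1%, and at 100% against 24.3% in the held-out pair. The bins in Kcnn3 and Cacna1c were 17.7 and 13.9 points higher there, short of 20. Slco2a1 had its start in 1 of its 2 gained bins, and 1 of the 2 was at least 20 points higher in the held-out pair. At equal covered length Kcnn3 and Mylk had no gained bin and Kcnma1, Slco2a1 and Cacna1c had 1 each.

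Counts in the signalling, hormone and matrix lists were small. The list of 46 Wnt, BMP, FGF and hedgehog genes held 3 gained bins. This was 1.38% of its 218 bins with a peak, near the 1.44% over all protein-coding genes. In this list Rspo2, a Wnt amplifier, and Bmp6, a BMP ligand, had 1 gained bin each. These 2 bins were 50.4 and 36.2 points higher in the held-out pair. Of 21 steroid and progesterone response genes, Hsd11b1, the enzyme that regenerates active glucocorticoid, had 2 gained bins (2.60% of the list's 77 bins with a peak), both higher in the held-out pair, at 47.8% against 9.20%, and it again had 2 at equal covered length, where Rspo2, Bmp6, Ccl7, Col8a1 and Col8a2 had none. The decidual list (24 genes) had none among its 74 bins with a peak. Among 36 chemokine and inflammatory genes, Ccl7, a monocyte chemokine, had the 1 gained bin, 36.3 points higher in the held-out pair. This was 1.54% of the list's 65 bins with a peak, near the 1.44% over all protein-coding genes, and at that share few bins would be gained in lists of this size. Among 31 matrix genes, Col8a1 had 5 and Col8a2 1, both short-chain collagens of vessel walls and basement membranes, and 5 of the 6 were higher in the held-out pair. The 6 were 6.59% of the list's bins with a peak. With bins starting 5000 bases further on, Bmp6, Ccl7 and Col8a2 had no gained bin. The 5 bins of Col8a1 ran from 66.3% at GD5.5 IIS to 35.1% at GD18.5 IS in cKO and lay between 2.50% and 19.3% in control.

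Gene families known for long or clustered loci were counted in the same way, beside 1.44% of all bins with a peak in protein-coding genes, and differences between families were not tested. Potassium channel genes held 24 gained bins in 6 of 92 genes (2.35% of their bins with a peak), 18 of which were higher in the held-out pair, with 5 bins in Kcnb2 and 4 each in Kcnk2 and Kcnab1. Solute carrier genes held 49 in 19 of 376 genes (3.09%), 43 of them higher, 22 of the 49 in Slc14a2. Imprinted genes held 6 bins in 5 of 30 genes (3.45%), 4 of them higher. Collagen chain genes held 9 bins (2.65%), interleukin and receptor genes 2 (1.11%) and cadherin and protocadherin genes 12 (1.51%), the last of these shares close to that over all genes, and glutamate and GABA receptor genes 4 (0.522%). The 986 bins with a peak in olfactory receptor genes, 287 in vomeronasal receptor genes, 275 in cytochrome P450 genes, 263 in 92 developmental transcription factor genes and 38 in the Hox clusters held none. The 13 autosomal broadly active genes (6 bins with a peak) and the 8 cell cycle inhibitors (11 bins) held none. Neither did the genes of Polycomb and the H3K27 demethylases (18 on the autosomes, 22 bins). At a share of 1.44%, lists with so few bins would hold few or none. A list of 12 genes with steady gains that had been taken from these same data held 79 gained bins in 11 genes, which is no independent evidence.

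Markers of other cell types were checked with the same count. Immune markers held 8 gained bins in 3 of 21 genes, 11.8% of the list's 68 bins with a peak, and 6 were higher in the held-out pair. They were Cd101, an inhibitory surface receptor with all 4 of its bins gained, Icos, a T-cell costimulator, and Prf1, the perforin gene. At equal covered length Cd101 and Icos had 1 gained bin each and Prf1 none. The epithelial list had 1 (1.47%), in Cdh1, at 18.8 points in the held-out pair, and the smooth muscle list 1 (1.85%), in Mylk. With bins starting 5000 bases further on, Cdh1 and Prf1 had none. Endothelial genes (111 bins with a peak), trophoblast genes (18) and fibroblast identity genes (24) had none. At the share of 1.44% over all protein-coding genes few bins would be gained in lists of this size. Mean coverage over the immune markers was 60.8% to 62.4% in cKO lists and 53.2% to 59.5% in controls, and the part of other cells in these results was not tested.

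Peaks in the gained bins were weak, as were most peaks of these lists. In cKO lists they held 2.96 to 3.18 peaks per bin with a median width of 1431 to 1745 bp, and in controls 1.44 to 1.89 peaks with a median width of 845 to 960 bp. The authors' fold over background had a median of 1.15 to 1.18 in cKO and 1.09 to 1.13 in controls, and the median -log10 p was 0.684 to 0.724 and 0.539 to 0.619. Over all autosomal peaks of the cKO lists the median width was 1076 to 1142 bp. The median fold was 1.12 to 1.15 and the median -log10 p 0.622 to 0.663. In controls these medians were 1049 to 1181 bp, 1.11 to 1.14 and 0.604 to 0.659. The rule asked for more coverage in the Pgr-Cre cKO lists than in their controls, so the values of those lists are a description only. In the held-out cKO list the median width was 1632 bp in gained bins, against 1142 bp over all its peaks. The fold was 1.16 against 1.13 and the -log10 p 0.697 against 0.629. In its control the width was 848 bp against 1049, the fold 1.13 against 1.14 and the -log10 p 0.613 against 0.659. These contrasts were not tested. Only 9 gained bins, 0.199%, held, in one or more of the 12 lists, a peak whose -log10 q reached 2, against 3.68% of the background bins. Such peaks lay in 0 to 2 gained bins of a cKO list and in 1 to 4 of a control list. They lay in 142 to 1218 background bins of a cKO list and in 843 to 5131 of a control list. Only at GD14.5 IIS did the cKO list have more such background bins than its control, 1160 against 843. With only such peaks counted, no bin met the rule. The values above therefore describe the extent of weakly enriched chromatin.

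In B6CBAF1/J females the same bins lay less inside peaks than the background did. The rule had also chosen bins of low coverage in the 5 Kdm6b f/f controls, with means of 14.6% to 20.6%. No background of like control coverage was set beside them, so the part of that choice was not tested. Their mean coverage was 19.1% at GD0.5, 18.9% at GD5.5 IIS, 16.2% at GD5.5 after a vasectomized mating and 21.8% after progesterone, against 36.8%, 36.2%, 36.4% and 35.2% over the background. They were at 0% in 42.1%, 43.8%, 48.6% and 41.9% of cases, beside 34.5%, 39.6%, 38.5% and 42.0% of the background, so that for progesterone the shares at 0% were nearly equal. A coverage of at least 50% was reached by 12% to 18.3% of gained bins and by 35% to 36.2% of the background. The 3 other lists share the GD0.5 list as their reference. Against it, 14.2% of gained bins were at least 20 points higher and 14.9% lower at GD5.5 IIS, beside 7.94% and 9.14% of the background. After the vasectomized mating 12.7% were higher and 18.2% lower (background 8.64% and 9.44%), and after progesterone 19.8% were higher and 15.6% lower (background 8.58% and 12%). In these 3 comparisons the gained bins had the larger share in both directions, a contrast that was not tested.

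Between the progesterone list and the list of the vasectomized mating, 683 gained bins (15.1%) were at least 20 points higher after progesterone and 138 (3.05%) lower, whereas in the background 4.18% were higher and 6.70% lower. Here the gained bins had the larger share upwards and the smaller share downwards. The mean difference was 5.58 points at gained bins and -1.18 in the background. This comparison was not planned, unlike those with GD0.5. Against GD5.5 IIS, 14.2% of gained bins were at least 20 points higher after progesterone and 7.87% lower, beside 4.67% and 6.70% of the background. There the gained bins had the larger share in both directions. Single loci show the spread. The gained bins of Adtrp averaged 4.76% at GD0.5, 25.9% at GD5.5 IIS, 19.6% after the vasectomized mating and 74.1% after progesterone, and those of Cd101 9.14%, 79.7%, 68.2% and 92.4%. The 22 bins of Slc14a2 stayed between 0.455% and 5.16%, and those of Rbms3 between 0% and 2.04%.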

How the data were processed

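Broad peaks of H3K27me3 CUT&RUN were called by the authors with macs2 2.2.7.1 on mm10 alignments from STAR 2.7.5c, per the labels; samtools 1.10 and bedtools 2.29.1 are also named there. The deposited lists, 1 for each group of 3 samples and 16 in all for 48 of the 80 samples, give each peak's position, the authors' fold over background as a ratio, -log10 p and -log10 q. The authors' -log10 p and q values were used to describe and filter peaks only. The other samples were not analysed here. Peak names show that the Kdm6b set and the B6CBAF1/J set were called in separate projects, so levels were not compared between them.

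Peaks were merged and the percent of each 10-kb bin inside them was computed with python 3.11.15, numpy 2.4.6 and pandas 2.3.3; the procedure was tested on simulated data. Exact 95% binomial intervals came from scipy 1.17.1. With 1 list per group there was no test and no replicate block. Genes, promoters and miRNAs came from RefSeq (GRCm38.p6). Coordinates count from 1. Named were the 10 longest runs (2 of the 6 runs of 7 bins among them, with ties taken by mean gain), the 10 bins of largest smallest gain, the extremes of the held-out pair, the 10 genes with most gained bins, up to 4 genes of each list, and bins at the threshold. The next lowest held-out bins, the miRNA bins and the 1-Mb windows were named after their values were seen. The bins, gene lists and rules were chosen with earlier results of these data known, and 1 list of steadily gained genes was taken from them and supports nothing here. Some items that these rules name are not reported here.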

Additional observations from a re-analysis of the deposited data

Results flagged for a closer look

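In the gained bin inside Gucy1a1 all 5 Pgr-Cre pairs were higher in cKO, by 24.2 to 63.8 points, while the Pdgfra-Cre pair was lower, at -44.5 points. The difference between the drivers at this bin was not tested, since each side of a pair is 1 list. Among 4524 bins it was the 1 with such a reversal of at least 20 points. A fall of that size needs a control coverage of at least 20%, and the median of the gained bins in the held-out control was 9.72%.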

How the results depend on the processing

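Gained bins stayed more frequent in the held-out pair and rarer in genes than the background under every alternative that left any bin. When peaks below a -log10 q of 2 were dropped there were 0 gained bins, so nothing else could be computed. Values below are in the order gained bins, held-out share, held-out median, share in protein-coding genes, share touching, runs, genes with a gained bin, then mean coverage at B6CBAF1/J GD0.5, GD5.5 IIS, vasectomized mating and progesterone. With a threshold of 10 points they were 9670, 92.7%, 40, 23.6%, 60.8%, 5776, 1070, 22.6%, 23.1%, 20.7% and 25.3%. With 30 points they were 2069, 90.4%, 57.0, 15.7%, 43%, 1539, 183, 15.3%, 14.8%, 12.7% and 19.3%. At equal covered length, 80% of the shortest list of each set, they were 1763, 76.9%, 43.3, 20.2%, 34.4%, 1429, 249, 23.3%, 24.9%, 22.8% and 31.9%. With peaks at a fold of at least 1.2 they were 2168, 80.9%, 50.1, 21.2%, 37.3%, 1716, 325, 7.79%, 9.41%, 9.24% and 16.5%.

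At equal covered length the background held-out share was 11.8%, and 15.9% at a fold of at least 1.2. Subtracting each pair's mean difference left 3908 bins, with a held-out share of 85.0% (background 12.8%), a median of 42.2 and 18.6% in genes. With 5-kb bins there were 7798 bins in 5203 runs, with 88.3%, 53.3 points and 53.3% touching, and with 20-kb bins 2413 bins in 1589 runs and 297 genes, with 93.6%, 45.5 points and 53.3% touching. Bins shifted by 5000 bases gave 4579 bins in 3069 runs, with 91.1%, 49.5 points, 19.5% in genes and 52.8% touching. Of the 47 named genes 40 then still had a gained bin, while Bmp6, Col8a2, Ccl7, Cdh1, Prf1, Cdh6 and Grin2b had none. Bins gained in all 6 pairs, an alternative added after the data were seen, lay in genes in 18.6%. Over all annotated genes the share in genes was 44.1%. Read in each other pair, the held-out share was 77.7%, 84.4%, 83.7%, 88.2% and 86.7%, as added after the data were seen.

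Leaving out each Pgr-Cre pair from the rule gave 5239 to 5935 bins, held-out shares of 88.6% to 89.6%, medians of 46.6 to 47.4, 20.8% to 21.3% in genes, 52.0% to 55.2% touching, 3493 to 3836 runs and 572 to 637 genes. B6CBAF1/J means were then 18.7% to 22.4%, 19.2% to 22.7%, 16.2% to 19.7% and 21.2% to 24.7%. Of the 47 named genes, 26 still had a gained bin at equal covered length and 42 after subtraction of the mean difference. No paired analysis was possible because each group has 1 pooled list. Read depth is unknown and bounds no value here.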
